A study of Mus musculus with 18 samples.

Results

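The genes described here are 53 components of the Wnt signalling pathway in C2C12 myotubes: 10 Wnt ligands, 2 genes of ligand secretion, 9 Frizzled receptors, 5 co-receptors, 8 secreted antagonists, 8 genes of the R-spondin module, 7 intracellular and feedback regulators and 4 nuclear genes. They were chosen by gene symbol through their Ensembl mouse IDs, and all 53 were found among the 48795 rows of the deposited expected-count table. C2C12 is a clonal mouse myoblast line whose cells fuse into multinucleate myotubes when serum is lowered, here over 5 days in 2% horse serum, while some unfused cells stay in such cultures. Messenger RNA was sequenced from 6 groups of 3 libraries each. The 3 groups with dexamethasone (DEX), a synthetic glucocorticoid, were exposed to 200 µM of it for 24 h after 12 h with vehicle, 10 µM ginsenoside Rc or 20 µM ginsenoside Rc. The other 3 groups had 0.1% DMSO as vehicle control, 10 µM ginsenoside Rc or 20 µM ginsenoside Rc for 36 h, without DEX. Ginsenoside Rc is a triterpenoid saponin of ginseng. Whether it stayed on the cells during DEX is not given in the sources used here. The labels do not tell whether replicate libraries stem from separate cultures, so p-values here reflect a spread that may be technical.

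Wnt proteins are secreted ligands that need the acyltransferase Porcn and the carrier Wls to leave the cell. In the canonical branch a Wnt binds a Frizzled receptor together with Lrp5 or Lrp6, the destruction complex built on Axin1 is held back, and β-catenin (Ctnnb1) accumulates and acts with the DNA-binding factors Lef1, Tcf7 and Tcf7l2. Several of the genes this turns on, among them Axin2, Nkd1, Nkd2, Notum, Znrf3 and Rnf43, dampen the pathway in turn, and R-spondins bound to Lgr4, Lgr5 or Lgr6 remove the ubiquitin ligases Znrf3 and Rnf43 that clear Frizzled from the cell surface. Other ligands, such as Wnt5a and Wnt11, can act through Ror2 and Ryk without β-catenin. In skeletal muscle the pathway is known for its part in embryonic myogenesis and in the differentiation of myoblasts.

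Libraries held between 32350889 and 45388609 expected counts. The first principal component carried 70.9% of the variance and separated the libraries with DEX from those without. Replicate 2 of the 20 µM group stood apart from the other 17 libraries: mitochondrially encoded genes took 2.79% of its counts, against 1.26% to 1.91% in the others. The numbers of genes called and some single values are therefore also given without it, while the other values include it. The 10 myotube markers were all detected, with summed levels of 18700 to 19800 CPM, counts scaled to a common library size, with DEX and 16900 to 17400 CPM in control. Not all moved with the sum: Myh3 averaged 2500 CPM with DEX and 4670 CPM in control. Myog and Mymx also had lower means with DEX, and the other markers had higher means.

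Of the 53 genes, 46 had enough counts to be tested. The other 7 stayed near the detection floor of 3 counts, which lay between 0.0662 and 0.0907 CPM: the ligand Wnt2, the antagonists Dkk1 and Sfrp5, the R-spondins Rspo1 and Rspo2, the ubiquitin ligase Rnf43 and the feedback inhibitor Nkd1. Dkk1 had a count in 1 library and Wnt2 had a count in 1 library. Rnf43 reached at most 0.279 CPM and Nkd1 at most 0.24 CPM, so changes of these feedback genes were not detectable at this depth. Among the tested genes, mean levels per length were highest for Porcn, at 113 CPM per kb of exon with DEX and 117 CPM per kb in control, followed by Ctnnb1 at 83.8 and 75.1 and Wls at 39.2 and 53.1 CPM per kb in the same order of groups. Next came Wnt10a at 30.9 and 40, Ryk at 32.4 and 31.2, Fzd1 at 28.6 and 34.9, Fzd2 at 25.6 and 35.3 and Fzd7 at 25.2 and 24.6 CPM per kb. Sfrp2 had 13.2 CPM per kb with DEX and 36.9 CPM per kb in control, so its place in the order depended on the group. Wnt10a was the ligand with the highest level per length, and Fzd1, Fzd2 and Fzd7 were the leading Frizzled receptors. The plot of levels by role sets these side by side for DEX and control.

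**Figure D1:**
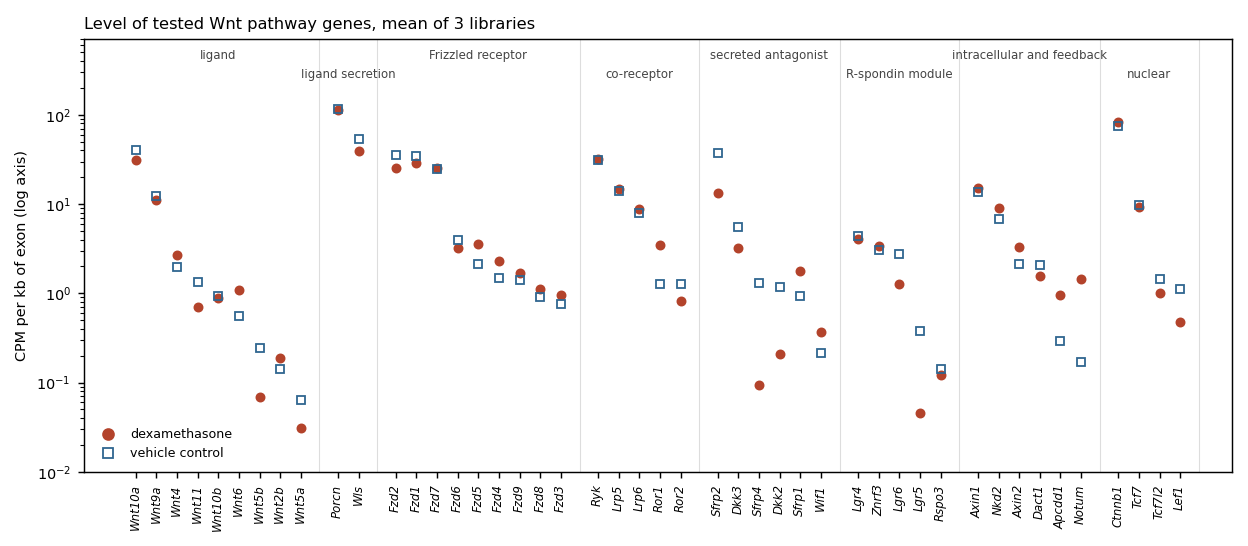
Mean level of each tested gene in CPM per kb of exon (log axis) over 3 libraries, with DEX as filled circles and vehicle control as open squares, grouped by role. Porcn, Ctnnb1 and Wls lie at the top, and Notum, Sfrp4, Dkk2 and Lgr5 show the widest gaps between the groups.

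Ginsenoside Rc was followed by lower levels of 9 of the 46 tested genes across the doses 0, 10 and 20 µM, in a model with 1 slope for both DEX states, and by higher levels of none. The 9 were the ligands Wnt10a and Wnt11, the receptors Fzd1 and Fzd2, the antagonist Sfrp2, the R-spondin receptors Lgr5 and Lgr6, and the feedback genes Axin2 and Nkd2. Across all genes tested, 1.65% passed in either direction and 1.14% were lower. The slopes, per 10 µM on the log2 scale with their standard error, were -0.25 ± 0.03 for Axin2 (adjusted p = 0.00087, edgeR quasi-likelihood test), -0.15 ± 0.02 for Wnt10a (0.00088), -0.33 ± 0.05 for Sfrp2 (0.0014) and -0.11 ± 0.02 for Fzd2 (0.0045). They were -0.08 ± 0.01 for Fzd1 (0.0056), -0.17 ± 0.03 for Nkd2 (0.0056), -0.29 ± 0.06 for Lgr6 (0.0083), -0.29 ± 0.06 for Wnt11 (0.0088) and -0.36 ± 0.09 for Lgr5 (0.033). All 9 except Lgr5 passed whichever single library was left out. Lgr5 was lost in 9 of 18 such fits. DESeq2 called these 9 and Porcn (2.99% of all genes). In edgeR the common slope of Porcn was -0.07 (adjusted p = 0.073), and it passed without composition scaling (0.021). With DEX, Porcn had 328 to 347 CPM at 0 µM, 303 to 324 CPM at 10 µM and 287 to 302 CPM at 20 µM. Without DEX it had 341 to 369, 328 to 334 and 318 to 354 CPM in the same order. The median slope was -0.02 over the 46 genes and 0 over all genes tested. The RNA is from whole cultures, so fewer cells of a type and less RNA per cell cannot be told apart.

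**Figure D2:**
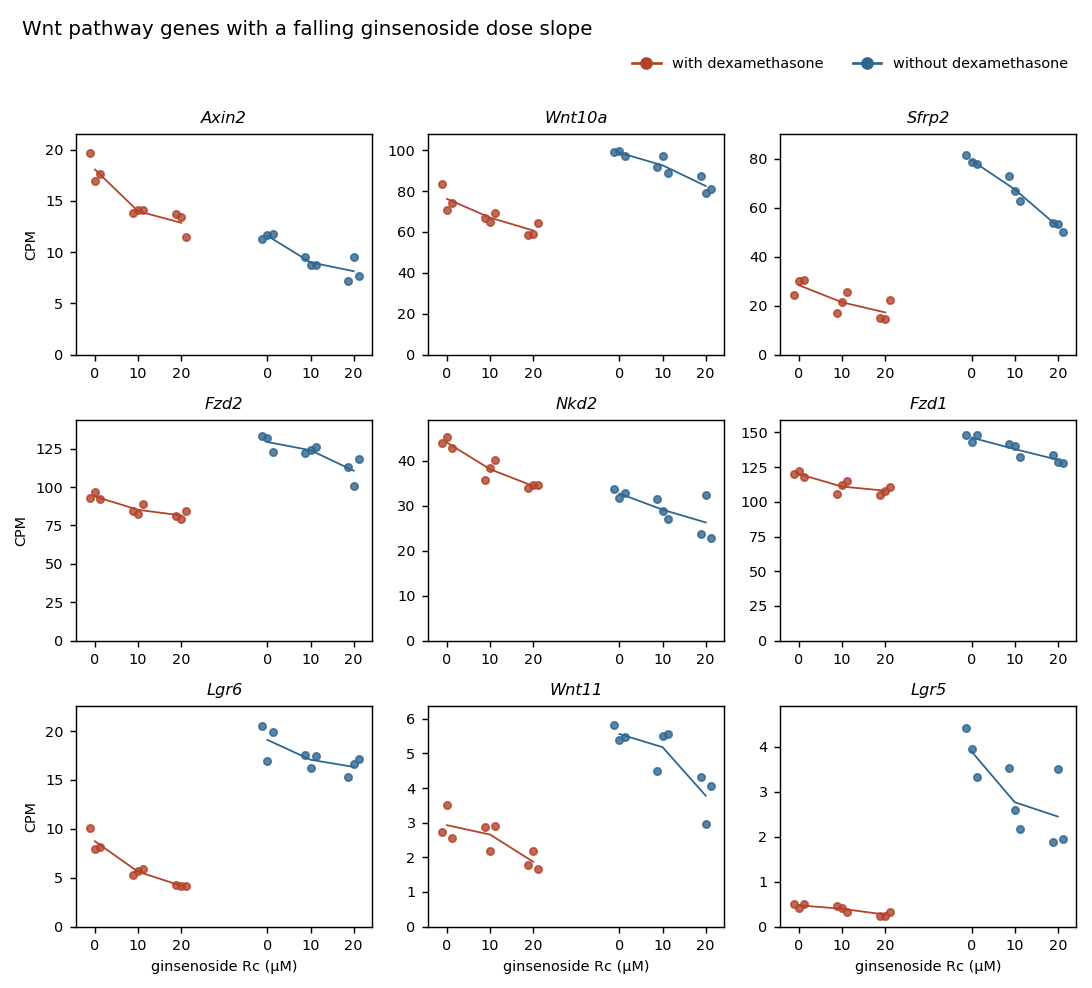
CPM of the 9 genes in each library (points) with the group means joined by lines, against ginsenoside Rc in µM, with DEX on the left of each panel and without DEX on the right. Means at 20 µM are below those at 0 µM in both states for all 9 genes.

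Axin2, a scaffold of the β-catenin destruction complex and a widely used readout of canonical Wnt signalling, lies on chromosome 11 (ENSMUSG00000000142, 108920349 to 108950783, GRCm38). With DEX it measured 19.7, 16.9 and 17.6 CPM at 0 µM, 13.8, 14.1 and 14.1 CPM at 10 µM, and 13.7, 13.4 and 11.5 CPM at 20 µM. Without DEX it measured 11.3, 11.7 and 11.8 CPM at 0 µM, 9.53, 8.79 and 8.7 CPM at 10 µM, and 7.19, 9.54 and 7.7 CPM at 20 µM. In both states every treated library was below every untreated one, and most of the difference was already there at 10 µM. The slope was -0.25 ± 0.05 with DEX (adjusted p = 0.018, edgeR) and -0.26 ± 0.05 without (0.04). The call with DEX was lost without any 1 of the 3 libraries with DEX alone. The call without DEX was lost in 12 of 18 fits that left out a library, with a replicate block (0.055) and in a fit of only the 9 libraries without DEX (0.17). The difference between these slopes was 0.01 ± 0.07 (0.97).

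Lgr6, a receptor for R-spondins on chromosome 1 (ENSMUSG00000042793, 134983301 to 135105276), had 10.1, 7.92 and 8.16 CPM at 0 µM with DEX, 5.23, 5.72 and 5.87 CPM at 10 µM, and 4.22, 4.15 and 4.16 CPM at 20 µM. In cultures without DEX it had 20.5, 16.9 and 19.9 CPM at 0 µM, 17.6, 16.2 and 17.4 CPM at 10 µM, and 15.3, 16.6 and 17.1 CPM at 20 µM. With DEX the 3 doses did not overlap, whereas without DEX they did. The slope was -0.54 ± 0.05 with DEX (1.8e-05, edgeR adjusted p) and -0.11 ± 0.04 without (0.4). The slopes differed by -0.42 ± 0.07, with an unadjusted p of 3.3e-06 and an adjusted p of 0.051, just short of the threshold of 0.05. Without replicate 2 of the 20 µM group this difference passed, as it did in DESeq2, with median-ratio scaling and with no low-count filter. It did not pass without composition scaling or with a replicate block, and it passed in no more than 3 of 18 fits that left out a library. Fitted at 20 µM alone, the interaction was -0.84 ± 0.13 (0.12), and -0.83 ± 0.13 (0.026) without replicate 2 of the 20 µM group. That was the only 1 of 18 fits leaving out a library in which the interaction passed. Lgr4, the R-spondin receptor with the highest level per length, had slopes of 0.06 ± 0.03 with DEX (0.64) and 0.04 ± 0.03 without (0.6).

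Sfrp2, a secreted Frizzled-related protein that binds Wnts (chromosome 3, 83766321 to 83774316), had 24.4, 30.1 and 30.6 CPM at 0 µM with DEX, 17.1, 21.6 and 25.5 CPM at 10 µM, and 15, 14.5 and 22.3 CPM at 20 µM. In the absence of DEX it measured 81.8, 78.6 and 77.9 CPM at 0 µM, 73.2, 66.9 and 62.7 CPM at 10 µM, and 53.9, 53.3 and 50.1 CPM at 20 µM. Without DEX the 3 doses did not overlap, and with DEX the 10 µM libraries overlapped both neighbours. Its slope was -0.36 ± 0.07 with DEX (adjusted p = 0.026, edgeR) and -0.30 ± 0.07 without (0.086). In fits of only the 9 libraries of each state, the slope with DEX did not pass (0.19) and the slope without DEX did (0.011). The slope with DEX was also lost with no low-count filter (0.062) and in 4 fits that left out a library, and the slope without DEX passed in DESeq2 (0.0049).

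Wnt10a, a canonical ligand on chromosome 1 (74791516 to 74804179), had 83.4, 70.9 and 74.2 CPM at 0 µM with DEX, 66.7, 64.9 and 69.4 CPM at 10 µM, and 58.7, 59 and 64.4 CPM at 20 µM. Its levels without DEX were 99.3, 99.8 and 97.1 CPM at 0 µM, 91.6, 97.3 and 88.8 CPM at 10 µM, and 87.4, 78.8 and 81.2 CPM at 20 µM. With DEX the 3 doses did not overlap, and without DEX only the 20 µM libraries stood clear of the rest. Its slopes were -0.16 ± 0.03 with DEX (0.012, edgeR adjusted p) and -0.13 ± 0.03 without (0.074). The call with DEX was lost without replicate 1 or replicate 2 of DEX plus 20 µM.

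Wnt11, a ligand best known for β-catenin-independent signalling (chromosome 7, 98835112 to 98855195), passed in the common slope (adjusted p = 0.0088, edgeR) and at 20 µM in neither state (0.12 with DEX and 0.2 without). With DEX it had 2.73, 3.5 and 2.55 CPM at 0 µM, 2.88, 2.19 and 2.9 CPM at 10 µM, and 1.78, 2.18 and 1.65 CPM at 20 µM. Levels without DEX were 5.81, 5.39 and 5.48 CPM at 0 µM, 4.48, 5.49 and 5.57 CPM at 10 µM, and 4.32, 2.96 and 4.06 CPM at 20 µM. In both states the 20 µM libraries were below all others and the 2 lower doses overlapped. Nkd2, which binds Dishevelled and dampens the pathway, had 44, 45.2 and 42.9 CPM at 0 µM with DEX, 35.7, 38.4 and 40.2 CPM at 10 µM, and 33.9, 34.5 and 34.7 CPM at 20 µM. The libraries without DEX held 33.6, 31.7 and 32.8 CPM at 0 µM, 31.5, 28.8 and 27 CPM at 10 µM, and 23.7, 32.3 and 22.8 CPM at 20 µM. The 3 doses of Nkd2 stood clear of each other with DEX. Without DEX, replicate 2 at 20 µM sat among the controls while the other 2 libraries were the lowest.

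Fzd1 and Fzd2, both abundant receptors, moved by the smallest amounts of the 9. With DEX, Fzd1 had 120, 122 and 118 CPM at 0 µM, 106, 112 and 115 CPM at 10 µM, and 105, 108 and 111 CPM at 20 µM. Cultures without DEX gave 148, 143 and 148 CPM at 0 µM, 142, 140 and 132 CPM at 10 µM, and 134, 129 and 128 CPM at 20 µM. Every treated library of Fzd1 was below every untreated one in both states. Fzd2 had 92.8, 96.6 and 92.2 CPM at 0 µM with DEX, 84.4, 82.5 and 88.7 CPM at 10 µM, and 81.1, 78.9 and 84.6 CPM at 20 µM. Without DEX it had 133, 132 and 123 CPM at 0 µM, 122, 124 and 126 CPM at 10 µM, and 113, 101 and 118 CPM at 20 µM. For Fzd2 the treated libraries stood clear of the untreated ones with DEX, and without DEX only those at 20 µM did. The third leading Frizzled, Fzd7, was the 1 gene of the 46 whose group means were higher at each dose step in both states, as they were for 5.36% of all genes. Its common slope did not pass, at 0.03 ± 0.02 (adjusted p = 0.6, edgeR).

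Lgr5, an R-spondin receptor known as a stem cell marker in gut and skin, had few counts with DEX: 0.508, 0.414 and 0.496 CPM at 0 µM, 0.457, 0.407 and 0.32 CPM at 10 µM, and 0.244, 0.224 and 0.33 CPM at 20 µM. In cultures without DEX it had 4.43, 3.95 and 3.32 CPM at 0 µM, 3.54, 2.6 and 2.17 CPM at 10 µM, and 1.89, 3.51 and 1.95 CPM at 20 µM. With DEX the 20 µM libraries were below those at 0 µM. Without DEX, replicate 1 at 10 µM and replicate 2 at 20 µM overlapped the controls.

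The promoters of 4 of the 9 genes are shown because these genes had the steepest common slopes among those with an entry in the RefSeq promoter table of GRCm38.p6. Each is the 250 bases just before the annotated start, read 5′ to 3′ on the gene's strand. Capitals mark the words searched on both strands: the TCF/LEF words, which are CTTTG followed by 2 bases that are each adenine or thymine, and AGAACA, the core word of the glucocorticoid receptor site.
Axin2, chr11:108920099-108920348, + strand: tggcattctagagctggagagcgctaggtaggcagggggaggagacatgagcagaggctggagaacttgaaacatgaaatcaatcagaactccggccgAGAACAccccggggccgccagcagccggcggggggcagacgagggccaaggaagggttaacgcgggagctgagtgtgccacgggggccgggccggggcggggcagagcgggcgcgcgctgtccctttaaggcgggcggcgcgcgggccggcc
Lgr6, chr1:135105277-135105526, - strand: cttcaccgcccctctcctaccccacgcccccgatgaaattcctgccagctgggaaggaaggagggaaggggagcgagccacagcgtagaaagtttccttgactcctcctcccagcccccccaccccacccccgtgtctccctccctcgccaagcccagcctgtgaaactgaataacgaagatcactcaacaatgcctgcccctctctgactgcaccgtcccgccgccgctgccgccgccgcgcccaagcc
Sfrp2, chr3:83766071-83766320, + strand: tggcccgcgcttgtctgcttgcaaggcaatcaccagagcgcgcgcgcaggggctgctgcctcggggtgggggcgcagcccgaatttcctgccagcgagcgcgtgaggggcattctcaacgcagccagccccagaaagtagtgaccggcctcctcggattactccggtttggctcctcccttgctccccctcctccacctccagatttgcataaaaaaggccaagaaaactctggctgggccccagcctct
Wnt11, chr7:98834862-98835111, + strand: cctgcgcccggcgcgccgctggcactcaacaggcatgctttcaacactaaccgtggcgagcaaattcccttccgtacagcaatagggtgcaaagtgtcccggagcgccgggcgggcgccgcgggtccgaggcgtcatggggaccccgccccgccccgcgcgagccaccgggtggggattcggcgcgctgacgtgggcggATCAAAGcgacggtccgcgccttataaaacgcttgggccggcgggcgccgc
The table has a second Wnt11 window (chr7:98838595-98838844), which holds no TCF/LEF word. The Wnt11 window shown holds 1, CTTTGAT on the minus strand, 51 bases before the start. The Axin2 window holds no TCF/LEF word and 1 AGAACA, 152 bases before the start. The Lgr6 and Sfrp2 windows hold neither. The table matched 34 of the 53 genes, with 44 windows. A TCF/LEF word stood in 6 of these 44 windows (13.6%), against 14.8% of all 32817 windows, and AGAACA in 7 (15.9%), against 16.1%. A full palindromic glucocorticoid receptor site, AGAACA and its reverse complement with 3 bases between, was in none of the 44 and in 0.00914% of all windows. A word this rare would hardly be met in 44 windows, so its absence says little. Sequence outside these 250 bases was not searched, so the windows do not show whether a gene has sites elsewhere.

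Taken by DEX state, the dose slope passed for 4 of the 46 genes with DEX, namely Lgr6, Wnt10a, Axin2 and Sfrp2 (0.615% of all genes), and for Axin2 alone without DEX (0.162%). The slopes in the 2 states share no library. At an unadjusted p under 0.05, 9 of 46 genes (19.6%) were lower in both states, against 1.39% of all genes tested. They were the same 9 as above, which were called from these same libraries, so the match of the 2 lists is no separate support. Across the 46 genes the slopes in the 2 states had a Pearson r of 0.63 and a Spearman rho of 0.52, against 0.12 and 0.14 across all genes, which are not independent replicates. Group means were lower at each dose step in both states for 12 of 46 genes (26.1%, against 6.5% of all genes): the 9 and Fzd6, Dkk3 and Tcf7. Within a DEX state the 9 genes varied together over the 18 libraries, with pairwise r of 0.34 to 0.9 and a median of 0.7 over 36 pairs, which share libraries and the dose itself. The 9 had been called for a fall with dose in these libraries, and that choice by itself favours positive r. Without replicate 2 of the 20 µM group, 10 genes passed with DEX (2.55% of all genes in that fit) and 4 without (0.282%), these being Axin2, Lgr5, Nkd2 and the Dishevelled-binding Dact1. In fits of only the 9 libraries of a state 6 genes passed with DEX (1.1% of all genes) and Sfrp2 alone passed without DEX (0.0602%).

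**Figure D3:**
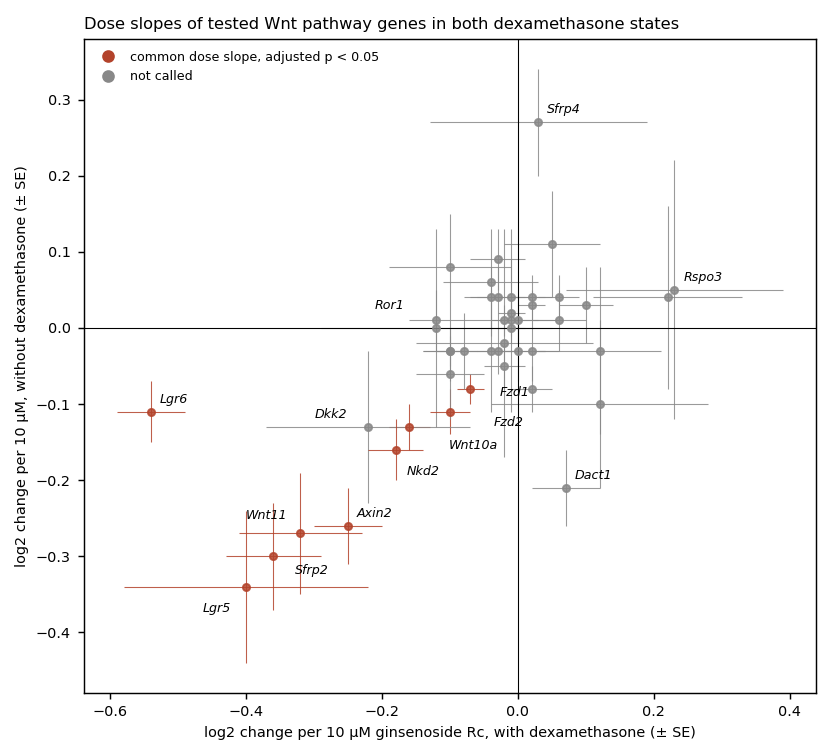
Dose slope (log2 change per 10 µM ± SE) of the 46 tested genes, with DEX on the horizontal axis and without DEX on the vertical axis; genes called in the common slope are coloured. The 9 called genes lie in the lower left quadrant, with Lgr6 far to the left at -0.54 with DEX and -0.11 without.

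Single doses gave few calls. At 20 µM with DEX against DEX alone, 3 of 46 genes passed (0.369% of all genes): Lgr6 changed by -1.06 ± 0.10 (8.9e-05, edgeR adjusted p), Axin2 by -0.49 ± 0.09 (0.023) and Wnt10a by -0.33 ± 0.06 (0.024). At 20 µM against control, Axin2 passed (0.104% of all genes), at -0.51 ± 0.09 (0.045), a call kept in 4 of 18 fits that left out a library. The value was -0.64 ± 0.09 (0.00023) without replicate 2 of the 20 µM group. At 10 µM with DEX, Lgr6 passed (0.0259% of all genes), at -0.64 ± 0.10 (0.035), kept in 5 of 18 such fits. At 10 µM against control none passed in edgeR, nor in DESeq2 (0.00648% of all genes passed in edgeR), and 5 were under an unadjusted p of 0.05 in edgeR (2.54% of all genes). The smallest p there was that of Dact1, whose change was -0.41 ± 0.09 (0.76). The 2 doses did not differ in any of the 46 genes at the adjusted threshold in edgeR or DESeq2, and no gene of the whole table passed in edgeR (0%). At an unadjusted p under 0.05 in edgeR there were 5 with DEX (2.83% of all genes) and 7 without (8.97%).

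None of the 46 genes passed the test of whether DEX changed the ginsenoside response in edgeR, at 10 µM, at 20 µM or in the slopes, and no gene of the whole table did (0%). Under an unadjusted p of 0.05 were 3 at 10 µM (2.12% of all genes), 4 at 20 µM (5.29%) and 5 in the slopes (5.66%). DESeq2 called 0 at 10 µM and Lgr6 alone in the other 2. Dact1 had the next smallest p at 20 µM. It had 5.44, 6.1 and 6.2 CPM at 0 µM with DEX, 6.03, 6.38 and 6.83 CPM at 10 µM, and 6.06, 6.71 and 6.87 CPM at 20 µM. In the absence of DEX it measured 7.39, 7.88 and 7.94 CPM at 0 µM, 5.44, 6.02 and 5.96 CPM at 10 µM, and 6.09, 6.23 and 5.01 CPM at 20 µM. Only without DEX did the treated libraries stand clear of the untreated ones, all of them lower. Its interaction at 20 µM was 0.57 ± 0.13 (0.54, edgeR adjusted p). For the carrier Wls, next in that order, it was 0.20 ± 0.08 (0.88). Wls had 347, 341 and 346 CPM at 0 µM with DEX, 359, 341 and 332 CPM at 10 µM, and 359, 364 and 341 CPM at 20 µM. Its levels without DEX were 461, 468 and 471 CPM at 0 µM, 471, 455 and 454 CPM at 10 µM, and 462, 375 and 416 CPM at 20 µM, with the lowest value in replicate 2. The groups with DEX overlapped each other throughout.

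Cell type markers were summed beside the doses. The 10 myotube markers summed with DEX to 18700 to 19800 CPM at 0 µM, 18600 to 19700 CPM at 10 µM and 19200 to 20300 CPM at 20 µM. Without DEX they summed to 16900 to 17400, 17700 to 17900 and 18100 to 19200 CPM at 0, 10 and 20 µM, so that the doses did not overlap. Not every marker rose with this sum: Mymx averaged 70.9, 68.1 and 63.8 CPM at these doses. Means of Myh3, Ttn and Mymk did not rise at both steps, and those of the other markers did. Fibroblast markers, 5 of 6 above 3 counts in every library, summed with DEX to 2100 to 2560 CPM at 0 µM, 2290 to 2430 CPM at 10 µM and 1970 to 2150 CPM at 20 µM. Without DEX they summed to 4970 to 5460, 5080 to 5560 and 4090 to 5400 CPM at 0, 10 and 20 µM. The 8 markers of undifferentiated myoblasts summed with DEX to 341 to 364, 327 to 361 and 311 to 341 CPM, and without DEX to 409 to 416, 391 to 415 and 393 to 436 CPM, in the same order of doses. Their part in the dose slopes was not tested.

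DEX by itself changed 34 of the 46 genes against vehicle control, 16 higher and 18 lower, where 43.8% of all genes tested changed, 20.6% higher and 23.2% lower. The groups did not overlap for 39 of 46 genes, against 59.3% of all genes. The median log2 change was -0.07 over the 46 genes and -0.01 over all. All 6 tested secreted antagonists and all 6 tested intracellular and feedback genes changed, the antagonists mostly lower and the feedback genes mostly higher. The summed fibroblast markers were lower with DEX, at 2100 to 2560 CPM against 4970 to 5460 CPM in control, a sum made up mostly of Col3a1 and Col1a1. Of the 6, Pdgfra went the other way, at 39.2 CPM with DEX and 15.2 CPM in control. Of the 8 markers of undifferentiated myoblasts, 4 had lower means with DEX, among them the proliferation marker Mki67 at 4.89 CPM with DEX and 52.1 CPM in control and the satellite cell marker Pax7 at 19.5 CPM with DEX and 37.6 CPM in control. The other 4 had higher means with DEX, among them Myf5 at 51.9 CPM with DEX and 23.6 CPM in control and Id3 at 34.6 CPM with DEX and 14.7 CPM in control. The 6 adipocyte markers summed to 8.68 to 10.8 CPM with DEX and 3.71 to 3.91 CPM in control, of which Fabp4 gave 3.68 CPM with DEX and 0.00736 CPM in control, and Pparg 6.27 CPM with DEX and 3.82 CPM in control, while Adipoq, Plin1, Lep and Cidec stayed at or under 3 counts in every library. The part of these shifts in the changes below was not tested. Called directions held under each scaling tried, and without composition scaling the rises of Axin1, Fzd8, Lrp6 and Znrf3 no longer passed. In that setting falls of Lgr4 (-0.17, adjusted p = 0.017, edgeR), Porcn (-0.12, 0.044) and Wnt9a (-0.2, 0.042) did pass. With median-ratio factors the rise of Lrp5 passed as well (0.1, 0.044).

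**Figure D4:**
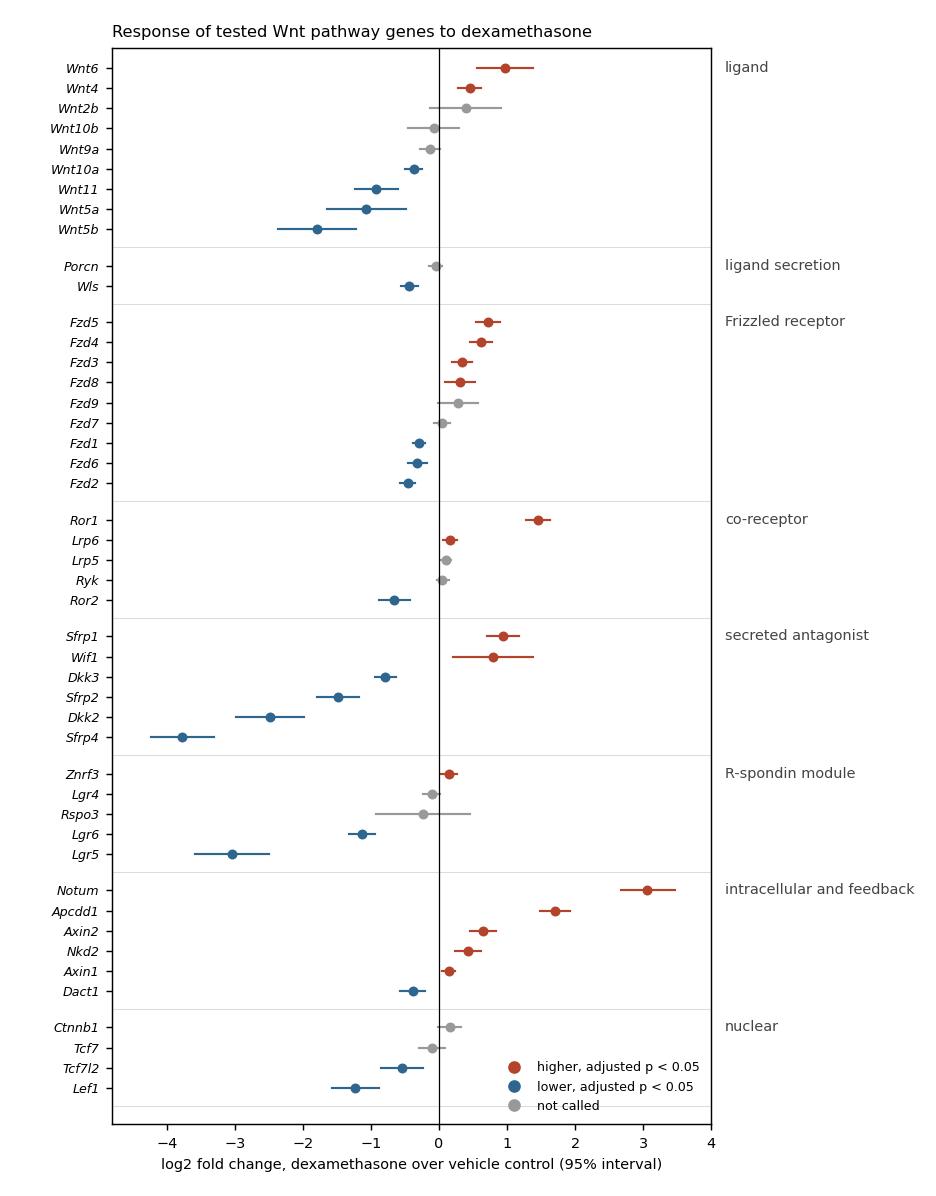
Log2 fold change of the 46 tested genes, DEX over vehicle control, with 95% intervals, by role; colours give the call at an adjusted p of 0.05. Notum at 3.06 and Sfrp4 at -3.77 are the extremes, and the rises of Axin1, Fzd8, Lrp6 and Znrf3 are lost without composition scaling.

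Among ligands, Wnt6 and Wnt4 rose, Wnt10a, Wnt11, Wnt5a and Wnt5b fell, and Wnt2b, Wnt9a and Wnt10b did not pass. Wnt5b, a β-catenin-independent ligand, had 0.145, 0.207 and 0.198 CPM with DEX, against 0.72, 0.729 and 0.482 CPM in control. Its relative Wnt5a had 0.314, 0.184 and 0.223 CPM with DEX, against 0.427, 0.53 and 0.558 CPM in control. Neither gene overlapped between the groups, and both were among the least abundant of those tested. The changes were -1.79 ± 0.27 for Wnt5b (2.9e-05, edgeR adjusted p) and -1.07 ± 0.27 for Wnt5a (0.0038). Wnt6 and Wnt10a are neighbours on chromosome 1 (74771892 to 74785322 and 74791516 to 74804179) and changed in opposite directions, by 0.97 ± 0.19 (0.00047) and -0.37 ± 0.06 (5.1e-05). Of the secretion genes, Wls fell by 0.44 on the log2 scale (6.4e-06) and Porcn measured -0.05 ± 0.05 (0.44). Porcn had 347, 342 and 328 CPM with DEX, against 369, 341 and 344 CPM in control, which overlap.

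Of the 9 Frizzled receptors 3 fell, 4 rose and 2 did not pass. Among the 3 most abundant per length, Fzd2 changed by -0.46 ± 0.05 (1.3e-06, edgeR adjusted p), Fzd1 by -0.29 ± 0.04 (2.6e-05), and Fzd7 by 0.04 ± 0.06 (0.64), whose sign turned without composition scaling. Fzd5, Fzd4, Fzd3 and Fzd8 rose by 0.31 to 0.72, Fzd6 changed by -0.32 and Fzd9 measured 0.28 ± 0.14 (0.12). Among co-receptors, the receptor tyrosine kinase-like Ror1, a Wnt5a receptor, had 17.9, 21.3 and 21.2 CPM with DEX, against 7.95, 7.22 and 6.9 CPM in control, a change of 1.45 ± 0.08 (1.3e-10). Its paralog Ror2 went the other way, by -0.66 ± 0.11 (7.2e-05). Ryk, with 152, 142 and 146 CPM with DEX against 142, 140 and 142 CPM in control, did not pass at 0.05 ± 0.04 (0.3), and its sign also turned without composition scaling. Lrp6 rose by 0.16 ± 0.05 (0.015), and Lrp5 measured 0.10 ± 0.04 (0.057).

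The secreted antagonists gave the widest spread of any role. Sfrp4, a secreted Frizzled-related protein, had 0.411, 0.322 and 0.446 CPM with DEX, against 4.8, 4.75 and 6.57 CPM in control, and changed by -3.77 ± 0.22 (1.5e-10, edgeR adjusted p). Dkk2, which binds Lrp5 and Lrp6, had 0.822, 0.944 and 0.545 CPM with DEX, against 4.32, 4.5 and 4.29 CPM in control, and changed by -2.49 ± 0.24 (9e-08). In both genes the groups were far apart. Sfrp2, whose values by dose stand above, changed by -1.48 ± 0.14 (2.4e-07) and Dkk3 by -0.79 ± 0.07 (4.9e-08). The other 2 antagonists rose, Sfrp1 by 0.94 ± 0.11 (1.2e-06) and Wif1, which binds Wnts, by 0.79 ± 0.28 (0.027). Wif1 had low levels that overlapped, at 1.26, 0.852 and 0.545 CPM with DEX against 0.587, 0.375 and 0.583 CPM in control. It did not pass for DEX at 10 µM of ginsenoside.

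**Figure D5:**
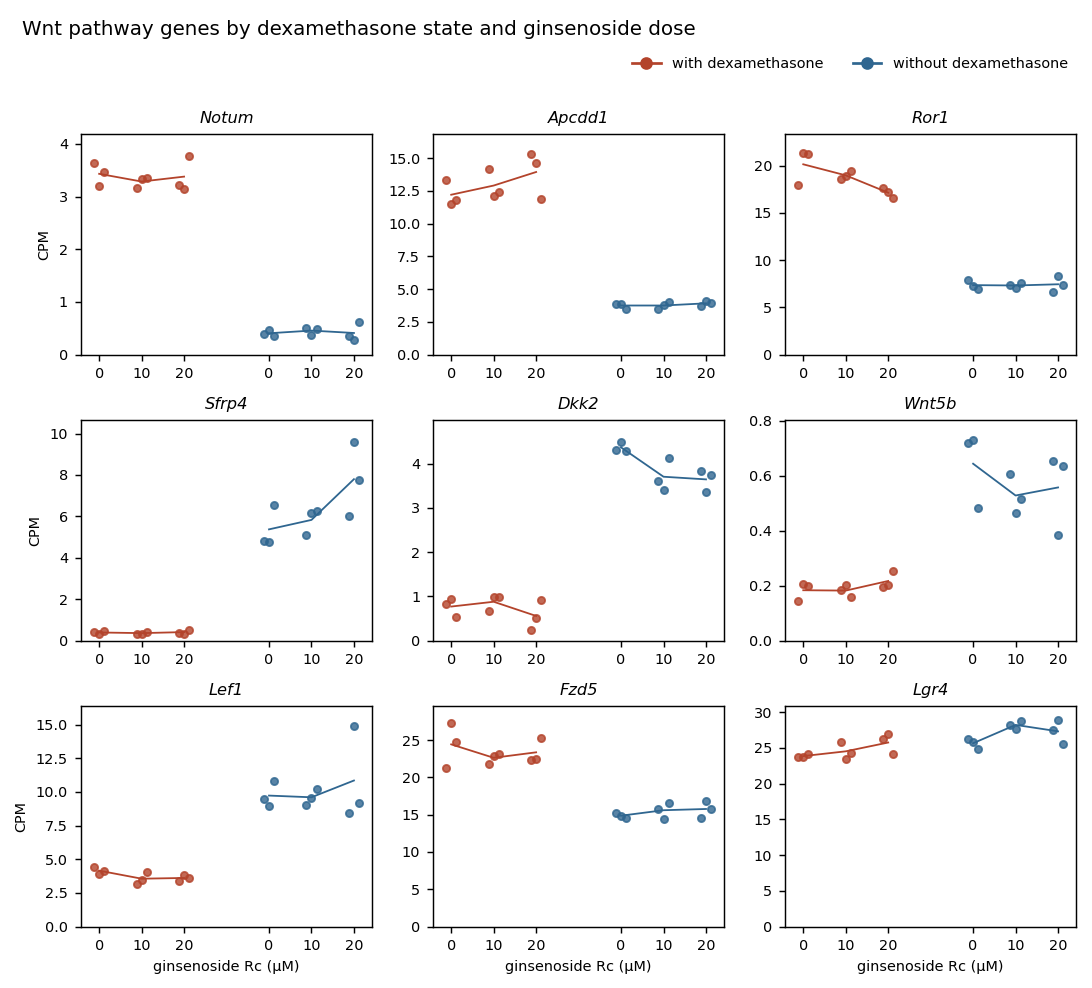
CPM of 9 genes in each library (points) with group means joined by lines, against ginsenoside Rc in µM, with DEX on the left of each panel and without DEX on the right. Notum, Apcdd1 and Ror1 are higher with DEX at every dose, and Sfrp4, Dkk2, Wnt5b and Lef1 are lower at every dose.

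In the R-spondin module Lgr5 and Lgr6 fell and Znrf3 rose slightly. Lgr5 had 0.508, 0.414 and 0.496 CPM with DEX, against 4.43, 3.95 and 3.32 CPM in control, a change of -3.04 ± 0.26 (1.9e-08, edgeR adjusted p), and Lgr6 changed by -1.13 ± 0.09 (9.4e-09). Lgr4 had 23.8, 23.7 and 24.1 CPM with DEX, against 26.3, 25.8 and 24.9 CPM in control, and did not pass at -0.10 ± 0.06 (0.15). Its groups did not overlap, and its change was the smallest of the 3 receptors. Znrf3 had 27.6, 27.6 and 26 CPM with DEX, against 25, 24.2 and 23.7 CPM in control (0.15 ± 0.06, 0.037), lost when any of 4 libraries was left out, namely DEX replicates 1 and 2 and control replicates 2 and 3. Rspo3, the 1 tested R-spondin, measured -0.24 ± 0.33 (0.6).

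Of the intracellular and feedback genes, Notum, a secreted carboxylesterase that removes the lipid from Wnts, had 3.63, 3.2 and 3.47 CPM with DEX, against 0.4, 0.464 and 0.355 CPM in control. Its change was 3.06 ± 0.19 (2.4e-10, edgeR adjusted p). Exons of 2 antisense transcripts, Myadml2os and Notumos, overlap Notum (chromosome 11, 120653788 to 120661175), and the strand setting of the counting is not given, so their reads cannot be told apart with certainty. The same holds for Axin2 and its antisense partner Gm11670, and for Wnt5a, Wnt11, Fzd5, Fzd6, Sfrp2, Rspo3, Dact1, Lef1 and Ctnnb1, whose exons also overlap a gene on the opposite strand. Apcdd1, a membrane inhibitor that binds Wnts and Lrp5, had 13.3, 11.5 and 11.8 CPM with DEX, against 3.87, 3.86 and 3.52 CPM in control (1.70 ± 0.10, 2.2e-10). Axin2 rose by 0.64 ± 0.09 (1.2e-05) and Nkd2 by 0.43 ± 0.09 (0.00099), so that these 2 were higher with DEX and fell with ginsenoside dose, while the other 7 genes with a dose slope were lower with DEX. Axin2 averaged 12.9 ± 1.22 CPM at 20 µM with DEX and 8.14 ± 1.24 CPM at 20 µM without DEX. The averages without ginsenoside were 18.1 ± 1.46 CPM with DEX and 11.6 ± 0.265 CPM in control (SD, n = 3 each). DEX plus 20 µM was not tested against control. Axin1, with 56.9, 57.2 and 57.9 CPM with DEX against 49.9, 51.4 and 54.8 CPM in control, rose by 0.14 ± 0.05 (0.018), and Dact1 fell by 0.39 on the log2 scale (0.0018).

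The nuclear genes did not follow the feedback genes. Lef1 had 4.45, 3.89 and 4.12 CPM with DEX, against 9.46, 8.94 and 10.8 CPM in control, and changed by -1.23 ± 0.17 (7.8e-06, edgeR adjusted p). Tcf7l2 changed by -0.54 ± 0.14 (0.0053). Ctnnb1, the β-catenin gene, had 446, 425 and 433 CPM with DEX, against 384, 401 and 386 CPM in control, which do not overlap, yet it did not pass at 0.16 ± 0.08 (0.12). At 20 µM of ginsenoside Ctnnb1 passed as higher with DEX, by 0.24 (0.016), but not without composition scaling (0.089). The libraries at 20 µM without DEX had 415, 305 and 405 CPM, the lowest being replicate 2. Tcf7 had 25.5, 23.8 and 23 CPM with DEX, against 25.9, 25.8 and 26.2 CPM in control (-0.11 ± 0.09, 0.37). The count table measures RNA, so it holds no value for β-catenin protein, on which the canonical branch turns.

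DEX was also compared at each dose of ginsenoside. Against the same dose without DEX, 32 of 46 genes passed at 10 µM (44.2% of all genes), of which 13 were higher (21.1% of all genes) and 19 lower (23%). At 20 µM 35 passed (48.9%), of which 15 were higher (23.5%) and 20 lower (25.4%). Of the genes called without ginsenoside, Axin1, Fzd8 and Dact1 passed at neither dose, Wif1 did not at 10 µM and Znrf3 did not at 20 µM. Mean Dact1 was 6.41 CPM with DEX and 5.81 CPM without at 10 µM, and 6.55 and 5.77 CPM at 20 µM. Genes called only with ginsenoside were Wnt9a and Lgr4 at 10 µM, and Wnt2b, Wnt9a, Porcn, Tcf7 and Ctnnb1 at 20 µM. Notum changed by 2.84 ± 0.19 at 10 µM and 3.02 ± 0.19 at 20 µM, Dkk2 by -2.08 ± 0.24 and -2.71 ± 0.25, and Axin2 by 0.64 ± 0.09 and 0.67 ± 0.09. Lgr6 measured -1.60 ± 0.10 at 10 µM and -1.96 ± 0.10 at 20 µM, beside -1.13 ± 0.09 without ginsenoside.

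Other genes of the pathway, from 4 lists written from general knowledge, were read beside these, against 20.6% of all genes higher and 23.2% lower with DEX. Of 14 tested further ligands, receptors and antagonists, DEX raised 1 and lowered 8 (median -0.37), with Igfbp4, an insulin-like growth factor binding protein that also antagonises Wnt, at -1.62 ± 0.05 (7.1e-14, edgeR adjusted p) and the trophoblast glycoprotein Tpbg at -0.88 ± 0.06 (7.1e-10). Of 41 tested intracellular genes of the canonical branch, 7 were higher and 9 lower (median 0.01), shares close to those of all genes, with the Dishevelled-binding Cxxc5 at -0.90 ± 0.05 (4.6e-11). Of 28 genes of the planar polarity and calcium branches, 4 were higher and 10 lower (median -0.04), with the polarity protein Vangl2 at -0.71 ± 0.07 (9e-08). Of 27 reported target genes of canonical Wnt signalling, 5 were higher and 15 lower (median -0.26), with the matricellular gene Ccn4 at -1.92 ± 0.07 (3.8e-13) and endothelin 1, Edn1, at 2.61.

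With the dose of ginsenoside, 1.14% of all genes were lower in the common slope. Of the 41 intracellular genes 0 passed in edgeR. Of the 14 further ligands, receptors and antagonists 1 did, Cthrc1, a secreted cofactor of Wnt receptors, at -0.42 ± 0.08 per 10 µM (0.0072, edgeR adjusted p), and of the 28 genes of the planar polarity and calcium branches 1 did, Nfatc4, at -0.11 ± 0.03 (0.028). Among reported targets 4 of 27 were lower and none higher, those with the smallest p being Ccn1 at -0.19 ± 0.03 (0.0056) and Edn1 at -0.25 ± 0.05 (0.015). Taken by state, Edn1 passed without DEX only, at -0.52 ± 0.06 (0.00061), and Ccn1 with DEX only, at -0.27 ± 0.04 (0.0068). The slopes of Edn1 in the 2 states differed by 0.39 ± 0.08, which did not pass (0.31). The destruction complex, Dishevelled and β-catenin cofactor genes of the intracellular list gave no call.

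Patterns like that of Axin2 were sought among 11638 well-expressed genes by the Pearson r of log2 CPM over the 18 libraries, after the mean of each DEX state was taken out. The 5 nearest were Cyp26b1, which degrades retinoic acid (0.92), Zswim4 (0.88), the transmembrane collagen Col23a1 (0.87), the TGF-β receptor Tgfbr2 (0.87) and the lysophospholipase D Enpp2 (0.85). For Lgr6 they were the connexin gene Gja5 (0.91), the integrin subunit Itga6 (0.91), Stmn2 (0.88), Slc44a4 (0.88) and Plekhg5 (0.87). These r values are the highest of many and describe these libraries.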

How the data were processed

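The 18 libraries were made from poly-A RNA with a directional kit and read as pairs of 100 bp, per the labels' protocols. RSEM 1.3.3 and STAR 2.7.3a, after Trim Galore 0.6.5 and FastQC 0.11.9, are named in the submitters' processing notes, with GRCm38 (mm10) as the genome. The gene models and the strand setting are not given there. The authors deposited 1 table of expected counts, which RSEM estimates per gene by sharing out ambiguous reads, and 9.27% of these were not whole. The members, lists, tests and the rule for named genes were chosen with earlier results of these data known.

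Expected counts were rounded. Symbols, coordinates and exon lengths came from GENCODE mouse release 21 (GRCm38). The filter filterByExpr kept 15436 of 26796 genes with any count, and TMM scaled the libraries. All 18 libraries were fitted together in R 4.3.3 with edgeR 4.0.16 and its robust quasi-likelihood test, with 1 mean per group for the comparisons, and with a dose slope per 10 µM in each DEX state or 1 common slope for both. Tests were two-sided, with Benjamini-Hochberg adjustment over all 15436 genes at 0.05. Standard errors were taken from the change and its F statistic. CPM are TMM scaled. The detection floor of 3 counts covers counting error only. Values per library are given for genes called in a ginsenoside test, for the 3 smallest p of each main ginsenoside comparison, for DEX changes of at least 1 (log2), for the gene of each role with the highest level per length and for feedback genes; other genes were named by role. Replicate pairs all differed beyond sampling noise. Alternatives were median-ratio factors, leaving out composition scaling or the low-count filter, DESeq2 1.42.0, fewer libraries in the fit, a replicate block and leaving out each library. Leaving out replicate 2 of both the 20 µM and the DEX group was added after seeing the data.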

Additional observations from a re-analysis of the deposited data

How the results depend on the processing

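In the DEX comparisons and the common slope no called gene changed sign under another scaling. Without composition scaling the uncalled Fzd7 and Ryk measured -0.03 and -0.01 for DEX against control, beside 0.04 and 0.05 with TMM, and the signs of Axin1, Fzd7, Lrp5 and Ryk turned at 10 µM and of Fzd7 and Ryk at 20 µM. The common slopes of Axin1, Fzd5, Lef1 and Znrf3, all uncalled and within 0.01 of 0, also turned. The common dose slope gave 8 to 11 genes when single libraries were left out (0.998% to 3.28% of all genes). DEX against control gave 30 to 37 (37.3% to 51.9%). With DEX against none the ranges were 30 to 33 at 10 µM (37.9% to 52.6% of all genes) and 30 to 36 at 20 µM (41.8% to 51%). The range was 0 to 4 for 20 µM against control, 0 to 2 for 10 µM with DEX against DEX, 1 to 8 for 20 µM with DEX against DEX, 0 to 4 for the slope without DEX, 2 to 10 for the slope with DEX, and 0 to 1 for the slope difference and for the interaction at 20 µM. It was 0 to 0 for 10 µM against control, for the interaction at 10 µM and for the 2 doses against each other in either DEX state. Leaving out replicate 2 of the 20 µM group gave the highest of these counts for single doses and slopes (4, 2, 8, 4 and 10), and the shares of all genes called in that fit were 0.282%, 0.096%, 2.18%, 0.282% and 2.55%. DEX replicate 3, or either of DEX plus 20 µM replicates 1 and 2, left 1 gene for 20 µM with DEX against DEX, and each of these 3, or DEX replicate 2, left 2 for the slope with DEX. The slope difference also reached 1 without DEX plus 10 µM replicate 1 or control replicate 1.

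DESeq2 gave 6 genes for 20 µM against control, 9 for 20 µM with DEX against DEX, 6 and 9 for the slopes without and with DEX (over all genes 107, 258, 142 and 309 calls, against 16, 57, 25 and 95 in edgeR), and 1, Lgr6, for the interaction at 20 µM and the slope difference. With no low-count filter these last 2 were 1 each, as was the slope difference with median-ratio factors. Fitting only the groups compared gave 0 for 20 µM against control and 0 for 10 µM with DEX against DEX. Without replicate 2 of both the 20 µM and the DEX group the counts were 4 for 20 µM against control, 2 for 10 µM with DEX against DEX, 1 for the interaction at 20 µM, 4 for the slope without DEX and 1 for the slope difference. The shares of all genes called in that fit were 0.308%, 0.0385%, 0.00641%, 0.308% and 0.0128% in the same order. Apart from the construction of these fits (fewer samples or more genes), the cause was not tested.

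Replicate numbers were shared by all groups, but same-numbered libraries did not deviate together (r between -0.2 and 0.15), and 5 of 18 libraries correlated best with their own number. With a replicate block the counts were 0 for 20 µM against control, 0 for 10 µM with DEX against DEX and 0 for the slope without DEX. Without composition scaling DEX against control gave 12 higher and 21 lower genes, and over all genes the share of rises among calls was 35%, against 47% with TMM.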
